A study of Mus musculus with 17 samples.

Results

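A set of 245 CpG sites near transcription starts, in DNA poor in CpG, was highly methylated in the blood of young mice and was followed here into old age under free feeding and under caloric restriction. The members were chosen by rule from 15742 retained autosomal sites, a retained site being one that 13 or more of the 17 mice covered with 100 reads or more. A member had a mean methylation above 80% in the young mice before adjustment, lay from 1000 bp before to 500 bp after an annotated transcription start, and sat at the centre of 500 bp with a GC content below 50% or an observed to expected CpG ratio below 0.6. Because the young values chose the members, high methylation in the young mice is a property of the choice and not a result, and differences from the young mice are given as a description without a test.

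Methylation was read in whole blood of 17 C57BL/6 mice by digital restriction enzyme analysis of methylation (DREAM), which reports on the CpG inside each CCCGGG sequence. SmaI cuts the unmethylated CCCGGG and leaves ends that read GGG, XmaI then cuts the methylated remainder and leaves ends that read CCGGG, and the 2 kinds of read ends are counted. The AL-young group held 5 mice fed ad libitum and 4 months old (15 and 16 female, 28, 29 and 30 male). The AL-old group held 7 mice fed ad libitum, the females 08 and 09 at 29 months, the females 10, 13 and 14 at 30 months and the males 25 and 27 at 33 months. The CR-old group held 5 mice on caloric restriction, the females 02 and 06 at 32 months and the males 19, 20 and 22 at 34, 38 and 34 months. No mouse was sampled at more than 1 age, so every comparison was between different animals, and CR-old mice were older than the AL-old mice of the same sex. In whole blood a change of methylation within a cell type and a change in the mix of blood cells cannot be told apart.

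Cytosine methylation at CpG sites is a covalent mark that is copied after DNA replication and is generally linked to a silent promoter when it covers the start of a gene. Most promoters rich in CpG stay free of it, whereas CpG sites in CpG-poor DNA are methylated in most tissues, and promoters poor in CpG are often those of genes with restricted expression or of alternative transcripts inside a gene. Gradual loss of methylation in CpG-poor DNA and gain in CpG-rich DNA is a known feature of ageing blood.

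The sequences of 9 members are shown because the results turn on them. Each is the plus strand of mm9, written 5′ to 3′, with the interrogated CCCGGG in capitals and 60 bases on either side. The number after the gene name is the distance from the assigned start (positive is downstream in the direction of transcription). Each site was assigned the nearest start of a protein-coding gene within the promoter window, or else the nearest other annotated start. The first 5 were among the members called higher in CR-old than in AL-old mice, and Mknk1 −80 was among those with the lowest AL-old means.
Psme1 +117, chr14:56199639-56199764: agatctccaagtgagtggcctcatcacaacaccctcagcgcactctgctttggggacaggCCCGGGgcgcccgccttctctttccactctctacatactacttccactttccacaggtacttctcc
4933407P14Rik +218, chr11:104047796-104047921: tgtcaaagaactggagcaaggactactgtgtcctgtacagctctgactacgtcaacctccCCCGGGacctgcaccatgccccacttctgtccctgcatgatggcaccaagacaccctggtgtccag
Tmem222 −757, chr4:132826725-132826850: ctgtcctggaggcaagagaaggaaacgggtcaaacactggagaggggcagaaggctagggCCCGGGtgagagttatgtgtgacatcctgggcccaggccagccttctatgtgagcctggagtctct
Tchp +149, chr5:115167655-115167780: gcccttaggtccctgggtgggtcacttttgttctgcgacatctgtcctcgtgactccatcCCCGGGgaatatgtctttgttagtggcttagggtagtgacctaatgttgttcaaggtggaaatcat
Pik3r2 −78, chr8:73298601-73298726: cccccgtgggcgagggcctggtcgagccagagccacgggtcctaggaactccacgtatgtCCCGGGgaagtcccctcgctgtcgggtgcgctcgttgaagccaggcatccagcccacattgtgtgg
Mknk1 −80, chr4:115529494-115529619: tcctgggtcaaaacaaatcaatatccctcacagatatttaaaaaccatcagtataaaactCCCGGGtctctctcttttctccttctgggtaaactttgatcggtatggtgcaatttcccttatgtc
Slc35c2 +215 was the member lowest in CR-old relative to AL-old mice, and the last 2 hardly differed among the 17 mice.
Slc35c2 +215, chr2:165108590-165108715: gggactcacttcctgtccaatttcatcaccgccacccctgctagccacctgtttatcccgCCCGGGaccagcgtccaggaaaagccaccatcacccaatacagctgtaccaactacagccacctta
Itgad −516, chr7:135297311-135297436: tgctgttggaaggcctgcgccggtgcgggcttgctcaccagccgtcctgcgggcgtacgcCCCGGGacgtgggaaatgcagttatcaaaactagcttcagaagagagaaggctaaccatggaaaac
Ppard +258, chr17:28409333-28409458: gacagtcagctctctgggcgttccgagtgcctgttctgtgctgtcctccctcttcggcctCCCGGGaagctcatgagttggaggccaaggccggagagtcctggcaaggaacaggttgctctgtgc

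The members lay on all 19 autosomes and belonged to 162 genes, 79 of which held more than 1 member and none more than 4. Protein-coding genes accounted for 211 members, and the rest were at processed transcripts (9), lincRNAs (8), pseudogenes (5), snRNAs (4), miRNAs (4), misc_RNAs (2) and snoRNAs (2). Only 88 members (35.9%) were assigned to the gene's own 5′ end, and the other 157 (64.1%) to the start of another annotated transcript of the gene. Accordingly 106 members lay in introns and 85 in coding exons, with 27 outside genes, 17 in non-coding exons and 10 in untranslated regions. The distance to the assigned start ranged from −998 to 500 bp with a median of −28 bp, and 25 members lay within 50 bp of it. The 500 bp windows had a median GC content of 56.0%, a median of 11 CpG and a median CpG ratio of 0.297, against 62.4%, 33 and 0.677 over all retained sites. Low CpG rather than low GC carried the choice, since 243 members met the CpG criterion, 53 the GC criterion and 51 both. For 243 members the 40 bases on each side of CCCGGG occurred once in mm9, and for 4933415F23Rik +364 and Sult2a4 −447 the bases on 1 side occurred more than once.

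Members often share a DNA fragment and are then not independent. In 83 neighbouring pairs, which involve 164 members, no other CCCGGG lay between the sites, and these lay 84 to 470 bp apart with a median of 223 bp. AL-old means within a pair were within 5 points in 44 of the 83 pairs, with a median gap of 4.48 points and a largest gap of 37.1 points.

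Libraries held between 6407519 and 51612805 counted reads per mouse, and depth at the members was lowest in AL-old 08 and 13, in which 135 and 164 members reached 100 reads at medians of 115 and 156 reads. The fully methylated spiked standard read between 98.8% and 99.8% in all mice and the unmethylated standard between 0 and 0.254%. Adjusted methylation multiplies the odds of methylation in each mouse by a correction factor taken from the spiked standards, and this factor was 1.403 to 3.96 in the 5 AL-old females and 1.80 in CR-old 06 but 0.872 to 1.13 in the other 11 mice. High correction and female sex cannot be told apart within the AL-old group. Raw counts of methylated reads set the precision of each value. For the members, the 95% Wilson interval was between 1.88 and 8.27 points wide at the median member of each mouse and at most 18.4 points wide, and these intervals cover counting error only, since PCR copies are not independent molecules.

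Averaged over the members, adjusted methylation was nearly the same in the young mice and scattered in the old ones. The 5 AL-young mice had means of 93.2%, 93.0%, 94.1%, 94.2% and 94.2%. Among the 7 AL-old mice the lowest mean was 79.9% (mouse 27), the median 87.3% (mouse 14) and the highest 92.4% (mouse 25). The CR-old mice had 89.6%, 92.6%, 87.9%, 89.2% and 90.5% in the order 02, 06, 19, 20 and 22. After adjustment all 12 old mice thus lay below all young mice, whose values chose the members, by a narrow margin. Before adjustment AL-old 25 (93.4%) lay above AL-young 15 (93.3%). The adjusted AL-old and CR-old means overlapped, with AL-old 25 and 09 at or above most of the CR-old mice.

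**Figure D1:**
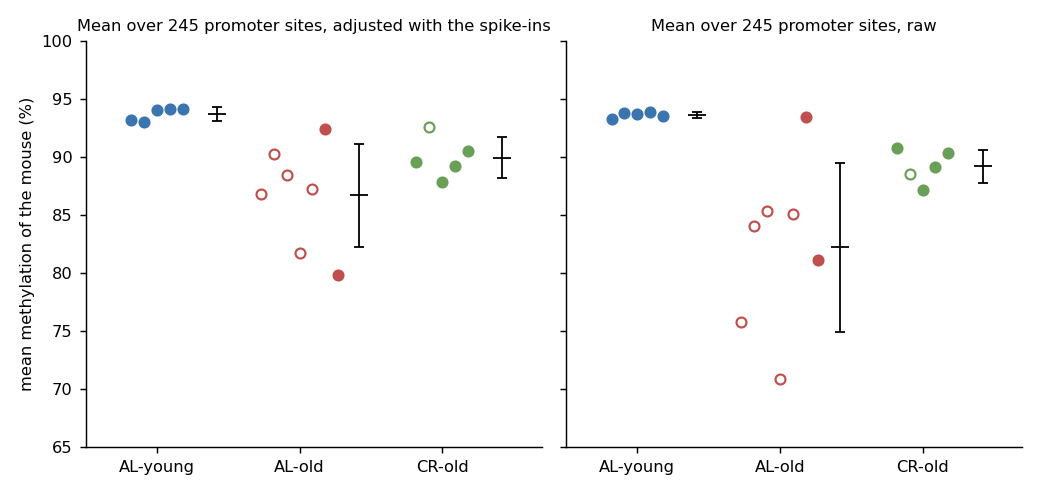
Mean methylation over the 245 members in each mouse by group (percent), after adjustment by the spiked standards in the left panel and as raw read shares in the right, with filled points for a correction factor below 1.3, open points for 1.3 or above and the black marks giving mean ± SD. Adjusted group means were 93.7% ± 0.573 (n = 5), 86.7% ± 4.48 (n = 7) and 89.97% ± 1.74 (n = 5), and without adjustment the open AL-old points sit lower, down to 70.9%.

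The group means were 93.7% ± 0.573 (SD, n = 5) for AL-young, 86.7% ± 4.48 (n = 7) for AL-old and 89.97% ± 1.74 (n = 5) for CR-old. CR-old minus AL-old was 3.27 points, which is less than the pooled SD of 3.64 points between mice. The median member behaved otherwise. Its level averaged 95.5% in AL-young, 95.1% in AL-old and 92.7% in CR-old, so the CR-old mice were 2.39 points below the AL-old mice by the median and 3.27 points above them by the mean. Site by site, the CR-old minus AL-old difference likewise had a mean of 2.51 points and a median of −0.577 points, opposite in sign. The mean was carried by a minority of members with large differences: CR-old was at least 10 points higher than AL-old at 38 members and at least 10 points lower at 10. The same summary gave a mean of 0.776 and a median of −0.933 points over the 2088 gene body sites chosen in the same way, 0.698 and −1.50 points over the 1232 intergenic ones, and −1.05 and −0.233 points over all retained sites.

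The number of members that stood low differed among the old mice. Members below 50% numbered 0 in every young mouse, 11, 10, 8, 31, 21, 0 and 24 in AL-old 08, 09, 10, 13, 14, 25 and 27, and 0, 4, 1, 3 and 5 in CR-old 02, 06, 19, 20 and 22. AL-old 25 therefore looked like the young mice by this count, and AL-old 27, also male and of the same age, did not. Sites below 50% made up 0%, 18.9% and 12.2% of the measured members in AL-old 25, 13 and 27. In these mice they made up 0%, 7.98% and 9.81% of the gene body sites and 0%, 13.01% and 12.3% of the intergenic sites. The share of measured members lying more than 10 points below the lowest young mouse was 0.44% in AL-old 25, 12.7% to 25.0% in the AL-old females and 35.7% in AL-old 27. Among the CR-old mice it was 4.90% to 9.80%. In the same order the gene body sites had 0.781%, 8.80% to 19.9%, 33.4% and 4.28% to 11.6%. The intergenic sites had 0.875%, 9.64% to 25.8%, 34.01% and 4.61% to 15.03%. All retained sites had 0.854%, 4.29% to 7.39%, 11.5% and 2.32% to 4.36%. In every class AL-old 25 was the lowest old mouse and AL-old 27 the highest, so this order was not particular to the members. Differences among the classes were not tested. The choice of members by the young values fixes the zeros in the young mice.

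Variation between mice of a group was larger in AL-old than in CR-old at 174 of 245 members (71.0%). The median member had an SD of 1.09 points among AL-young, 6.12 points among AL-old and 2.83 points among CR-old mice, and the SD exceeded 10 points at 0, 94 and 13 members. The share with the larger SD in AL-old was 63.5% at the gene body sites, 65.3% at the intergenic sites and 80.3% over all retained sites, and the differences among these shares were not tested.

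**Figure D2:**
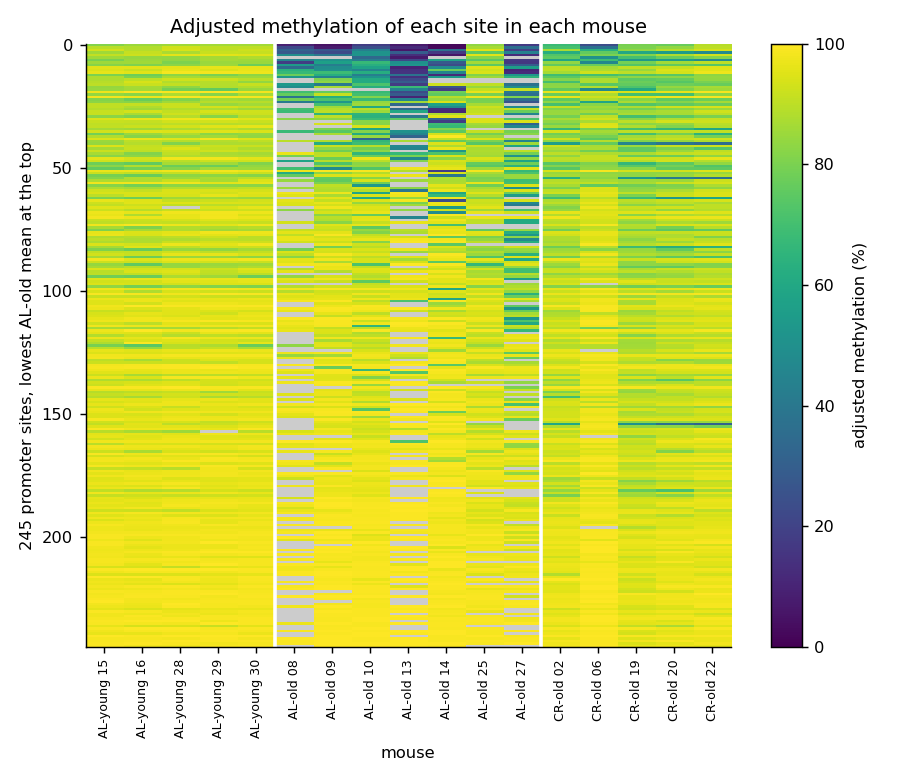
Adjusted methylation (percent, colour scale) of all 245 members (rows, ordered by AL-old mean) in each of the 17 mice (columns, by group), with grey where a mouse had fewer than 100 reads. The low rows at one end are low in most AL-old mice but not in AL-old 25, and are mostly higher in the CR-old mice.

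The comparison of CR-old with AL-old mice asks how methylation in old blood differed with diet, and it does not use the young values that chose the members. Adjusted methylation was higher in CR-old at 13 members (5.31%) and lower at 10 (4.08%), by edgeR's quasi-likelihood test at an adjusted p under 0.05 over all 15742 sites together with group means at least 2 points apart. Over all sites 1.21% were called higher and 7.03% lower, so the share of members higher in CR-old was above the background and the share lower was below it. The corresponding shares were 2.30% and 7.81% at the gene body sites and 1.06% and 9.33% at the intergenic sites, and the differences among these classes were not tested. The 13 higher members were at 10 genes and differed by up to 47.3 points. The 10 lower members were at 9 genes and, apart from Slc35c2 +215, differed by −8.18 to −2.20 points. In 4 of the neighbouring pairs both sites were called, so the calls count fewer loci than sites. No member had all CR-old mice above all AL-old mice (background 0.286%), and 7 had all CR-old mice below all AL-old mice, counting mice with 100 reads at the site (2.86%, background 2.25%).

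These calls depended on how the correction factor was treated. With a high correction factor (1.3 or above, yes or no) as a further covariate in the fit, 1 member was called, Pik3r2 −330. It was higher in CR-old by 31.9 points (adjusted p = 0.0494, edgeR). Over all retained sites 12 were then called higher and 129 lower. Raw counts in place of adjusted odds gave 16 members higher and 1 lower, and 262 of all sites higher and 293 lower. They moved the median log2 odds ratio from −0.49 to −0.06 over all sites and from −0.42 to 0.19 over the members. Among the 11 mice with a low factor, edgeR called 0 members and 0 of all sites (51 members and 3318 sites at an unadjusted p under 0.05), with AL-old represented by the 2 males only. limma on all mice called 10 members higher and 10 lower, and 178 of all sites higher and 1005 lower. Leaving out each mouse in turn gave 9 to 19 members higher and 2 to 26 lower, with the most calls without AL-old 25 (19 and 22) and the fewest without CR-old 19 (9 and 2). Over all sites the omissions gave 92 to 364 higher and 618 to 1672 lower. Without AL-old 25 these were 364 and 1672, and without CR-old 19 they were 115 and 634.

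The largest difference was at Psme1, which encodes PA28α, a subunit of the interferon-inducible proteasome activator that shapes peptides for MHC class I. Psme1 +117 (chr14:56199699-56199704, intron, near a start other than the gene's own 5′ end) stood at 81.5%, 84.8%, 85.9%, 85.9% and 86.1% in the young mice. In AL-old the lowest mouse was at 2.14%, the median at 9.32% and the highest, AL-old 25, at 83.5%. The CR-old mice 02, 06, 19, 20 and 22 were at 68.3%, 23.8%, 79.4%, 77.1% and 89.4%. After adjustment 6 of the 7 AL-old mice lay under every CR-old mouse, and only AL-old 25 lay within the CR-old range. The difference was 47.3 points (log2 odds ratio 4.32 ± 0.83 SE, adjusted p = 0.000702, edgeR). Raw reads gave 15 methylated of 1011 (1.48%, Wilson interval 0.901 to 2.43%) in AL-old 14, 59 of 403 (14.6%, 11.5 to 18.4%) in CR-old 06 and 97 of 531 (18.3%, 15.2 to 21.8%) in AL-old 27, so that without adjustment AL-old 27 stood above CR-old 06. Psme1 +254, in a non-coding exon, was called as well, at 72.3% ± 20.9 (SD, n = 5) in CR-old and 27.6% ± 28.6 (n = 7) in AL-old (difference 44.8 points, adjusted p = 0.00165, edgeR).

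At 4933407P14Rik +218, in a coding exon at the gene's own start, the young mice had 93.3%, 89.0%, 94.1%, 90.5% and 92.5%. AL-old ran from 6.00% through a median of 31.5% to 95.3%, and CR-old were at 87.1%, 62.9%, 83.5%, 89.3% and 93.4% (difference 46.1 points, adjusted p = 0.00143, edgeR). Tmem222 −757, in an intron of a gene for a transmembrane protein, had 90.9%, 92.3%, 96.0%, 96.0% and 95.2% in the young mice. There AL-old ran from 5.52% through 39.6% to 95.3% and CR-old stood at 73.0%, 80.03%, 80.9%, 88.3% and 93.2% (difference 44.9 points, adjusted p = 0.0025, edgeR). At both sites AL-old 25 was within or above the young range, and the other AL-old mice were at most 51.6% at Tmem222 −757 and 43.2% at 4933407P14Rik +218.

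Tchp encodes trichoplein, a keratin-binding protein that is also found at centrioles. Tchp +149 (intron) had young values of 95.4%, 95.3%, 95.8%, 96.4% and 96.2%, an AL-old range of 10.1% to 95.3% with a median of 49.2%, and CR-old values of 90.1%, 86.5%, 90.6%, 91.7% and 95.1%. The CR-old mice were tightly grouped and above 6 of the 7 AL-old mice (difference 40.7 points, log2 odds ratio 3.37 ± 0.71 SE, adjusted p = 0.0013, edgeR), and Tchp −38 was called with a difference of 30.5 points. At Pik3r2, which encodes the p85β regulatory subunit of phosphoinositide 3-kinase, site −78 (coding exon) had 96.3%, 95.3%, 98.5%, 98.4% and 97.5% in the young mice. In AL-old it had 12.2%, 62.1% and 94.5% as the lowest, median and highest value, and in CR-old 87.0%, 92.6%, 89.97%, 93.7% and 97.4% (difference 40.004 points, adjusted p = 0.00154, edgeR). Pik3r2 −330 was called with 31.9 points.

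Arid3a, a transcription factor known from B cells, was higher in CR-old at +447, in an untranslated region, with AL-old at 10.4%, 50.3% and 92.6% for the lowest, median and highest mouse and CR-old from 85.0% to 95.7% (difference 40.02 points, adjusted p = 0.00213, edgeR). Chdh −645, in a coding exon of the gene for choline dehydrogenase, differed by 30.9 points (adjusted p = 0.0303, edgeR), with CR-old 06 at 46.4% and the other CR-old mice from 79.1% to 90.2%. Gm12532 +289 (30.1 points) had 100 reads in only 3 AL-old mice, at 6.67%, 34.0% and 81.9%, while the test used the counts of all AL-old mice. Gm20462 −431, which lies in a coding exon of Notch4, differed by 28.5 points with an adjusted p of 0.0401 in edgeR. Calls at Psme1 +117, 4933407P14Rik +218, Tmem222 −757, Tchp +149, Arid3a +447 and Pik3r2 −78 were kept when any 1 mouse was left out. Those at Chdh, Gm12532 and Gm20462 were lost in 7, 9 and 7 of the 17 omissions. None of these calls was kept with a high correction factor as a covariate, or among the mice with a low factor.

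**Figure D3:**
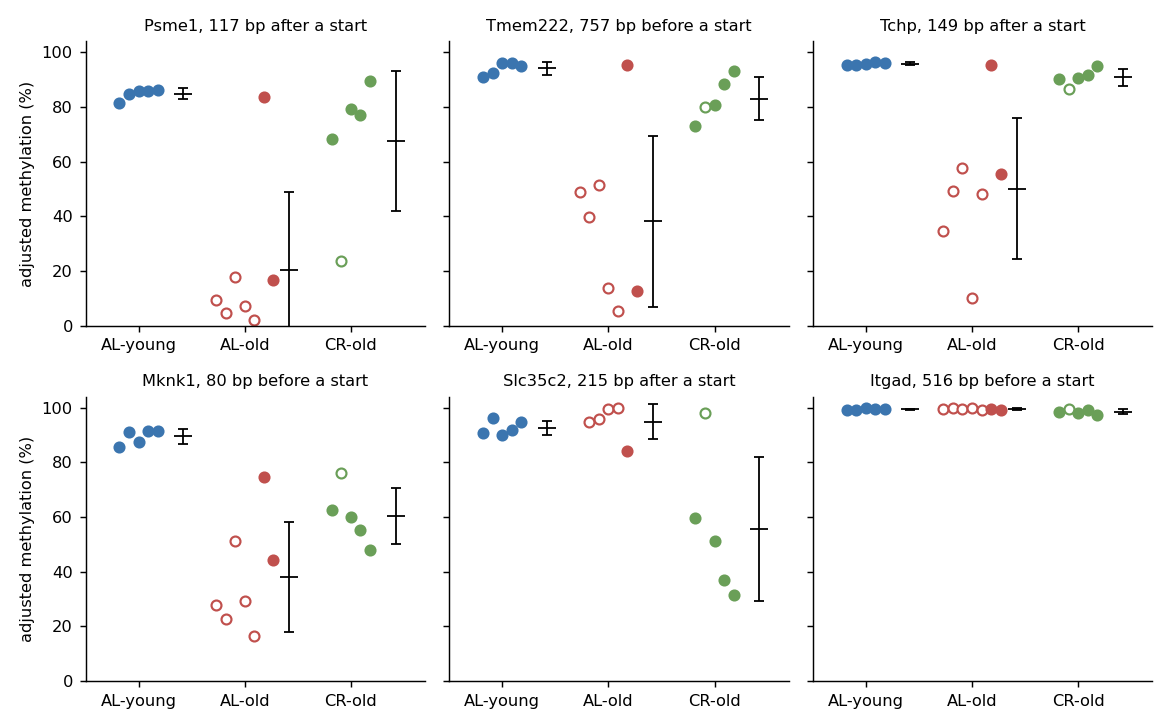
Adjusted methylation (percent) in each mouse at Psme1 +117, Tmem222 −757, Tchp +149, Mknk1 −80, Slc35c2 +215 and Itgad −516, by group, with open points for mice with a correction factor of 1.3 or above and black marks for the mean ± SD of the group, cut off at 0. At Psme1 +117 AL-old 25 is at 83.5% while the other AL-old mice lie between 2.14% and 18.0%, and at Slc35c2 +215 CR-old 06 is at 98.1% while the other CR-old mice lie between 31.3% and 59.7%.

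Correction factor moved with the AL-old group at these sites. Of 10 sites with higher methylation in CR-old (1 per gene), CR-old 06, itself highly corrected, was above all highly corrected AL-old mice at 8. The CR-old mice with a low factor were all above AL-old 27 at each of the 9 sites with a value in that mouse, but above AL-old 25 at 0 of 10 sites. Whether the correction had a part in the calls was not tested.

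In the other direction, Slc35c2 +215 (chr2:165108650-165108655, non-coding exon), at a gene of the nucleotide sugar transporter family, was the only member called lower with a large difference. The young mice had 90.7%, 96.0%, 89.9%, 91.8% and 94.7%, and the 5 AL-old mice with 100 reads ran from 84.0% through a median of 96.0% to 99.9%. CR-old mice 02, 06, 19, 20 and 22 had 59.7%, 98.1%, 51.2%, 37.0% and 31.3%. All but CR-old 06 fell below every AL-old mouse with 100 reads (difference −39.4 points, log2 odds ratio −4.33 ± 0.92 SE, adjusted p = 0.0013, edgeR on the counts of all mice). The call was kept when any 1 mouse was left out, but it was lost with a high correction factor as a covariate.

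The other lower members differed by much less. CR-old minus AL-old was −8.18 points at 9330188P03Rik +160 and −4.77 points at Xpo6 +237, in the gene for an exportin of actin and profilin. It was −4.70 points at Myo18a +350, in the gene for an unconventional myosin. The difference was −4.37 points at Gm16122 −123, in an intron of Mad1l1, where a second site at +115 was also called. It was −3.91 points at Hdac7 +32, in the gene for a class IIa histone deacetylase. At Dppa4 +361, in a pluripotency-associated gene, the difference was −2.88 points. At Rtel1 +54, in the gene for a telomere helicase, it was −2.58 points, and at 2410089E03Rik −943 it was −2.20 points. Adjusted p-values of these 8 sites ran from 0.0101 to 0.0447 in edgeR. With 1 mouse left out at a time, the call was lost in 13 of 17 omissions at Myo18a, 8 at Xpo6 and at Hdac7, and 7 at 9330188P03Rik. It was lost in 4 at Gm16122 −123, 3 at Rtel1, 2 at 2410089E03Rik and 1 at Dppa4. At Hdac7 +32, for example, AL-old ran from 97.81% to 99.58% and CR-old from 92.53% to 97.80%, so that the CR-old mice lay just below the 4 AL-old mice with 100 reads. CR-old 06 was the highest CR-old mouse at all 9 named lower sites. It was below all highly corrected AL-old mice at only 2 of these 9, while the CR-old mice with a low factor were all below AL-old 27 at 5 of 5 sites and below AL-old 25 at 7 of 8.

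**Figure D4:**
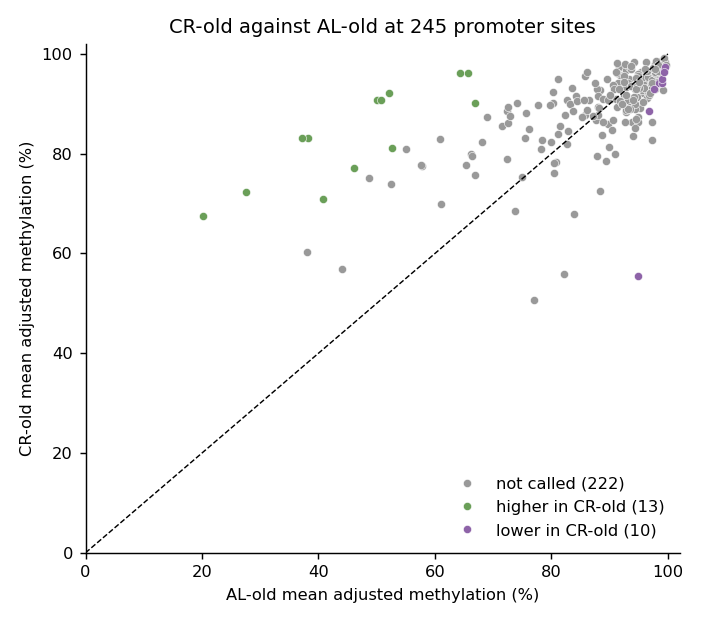
Mean adjusted methylation (percent) of the members in AL-old (horizontal) and CR-old (vertical) mice, coloured by the edgeR call. The 13 higher members lie well above the diagonal at AL-old means from 20.3% upwards, and 9 of the 10 lower ones lie close below it near full methylation.

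Large differences also stood short of the threshold. CR-old minus AL-old was −26.2 points at Gdpd3 −335 (adjusted p = 0.0651) and −26.5 points at A530020G20Rik +24 (adjusted p = 0.109), while Ctu2 +9, at a gene for tRNA thiolation, had a difference of 26.5 points in the other direction (adjusted p = 0.0612), as did Ctnna3 −790 with 26.0 points (adjusted p = 0.289), all from edgeR. An interaction of diet with sex passed an adjusted p of 0.05 in edgeR at 0 members and 0 of all sites, and 11 members (4.49%) and 2.46% of all sites had an unadjusted p under 0.05. With only 2 AL-old males and 2 CR-old females this does not show that the sexes were alike.

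Called members were counted by position. At the gene's own 5′ end 3 were higher and 4 lower of 88, and at another transcript's start 10 were higher and 6 lower of 157. Before the start 6 were higher and 2 lower of 128, and at or after it 7 were higher and 8 lower of 117. Of the 53 members in DNA with a GC content below 50%, 0 were higher and 5 lower, and of the other 192, 13 were higher and 5 lower, all by edgeR. None of these splits was tested.

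**Figure D5:**
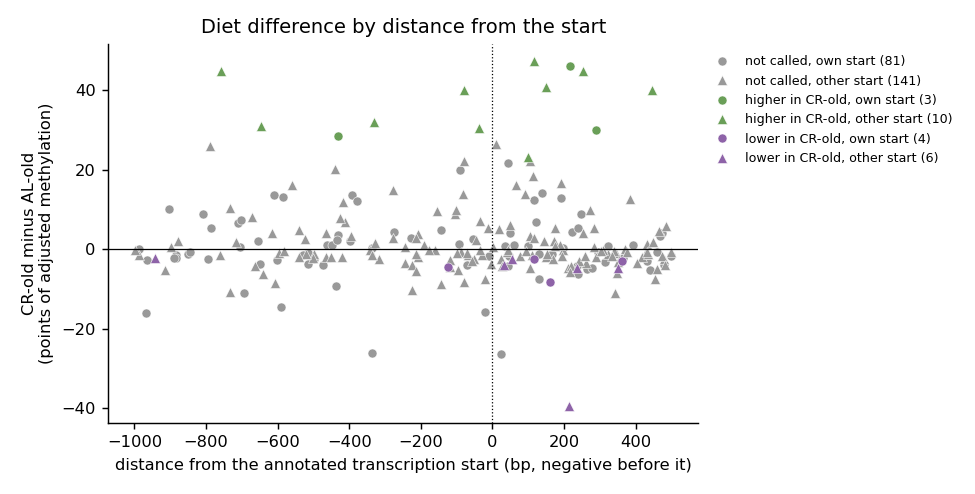
CR-old minus AL-old difference in mean adjusted methylation (percentage points) of each member against its distance from the assigned transcription start (bp). Circles mark the gene's own start and triangles another start. The 38 members that were higher in CR-old by at least 10 points lie on both sides of the start.

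Relative to the young mice, the old mice are described without a test. As a count only, AL-old passed the same edgeR thresholds as lower at 31 members and as higher at 5, where the background was 3.27% and 7.60%. The young values chose the members, so these counts are no test and nothing is read from them. Every AL-old mouse lay below every AL-young mouse at 17 members (background 1.79%) and above at 5 (background 5.09%), and every CR-old mouse lay below every AL-young mouse at 26 (background 4.34%). CR-old against AL-young gave 0 calls in either direction by edgeR (background 0.0191% higher and 0.0445% lower) and 0 by limma. An unadjusted p under 0.05 was reached at 29 members by edgeR and 27 by limma, and at 1181 and 995 of all sites. With only the 2 groups in the fit edgeR called 24 members lower and 0 higher, and 563 of all sites lower and 151 higher. With low-correction mice it called 31 members lower and 0 higher, and 693 of all sites lower and 61 higher. The 0 calls of the main fit thus depended on the design. Both contrasts share the young mice, so they are not independent.

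The 10 members with the largest loss in AL-old, counted where all 17 mice had 100 reads and no AL-old mouse fell inside the young range, were led by Psme1 +254. Mknk1 −80, in an intron of the gene for a kinase that phosphorylates eIF4E, followed with young values of 85.7%, 91.2%, 87.5%, 91.4% and 91.3%. AL-old had a lowest value of 16.5%, a median of 29.4% and a highest of 74.6%, while CR-old had 62.5%, 75.9%, 59.97%, 55.3% and 47.9%. CR-old was 22.2 points above AL-old there, which missed the threshold (adjusted p = 0.151, edgeR). Tchp +149 and Pik3r2 −78 were also in this set, and the rest were Gm17246 +191 (a lincRNA; AL-old 16.8 to 74.5%), Ctu2 +9 (23.04 to 75.1%), Trp53i11 −560 (31.5 to 94.2%), Ppp1r16a +114 (11.0 to 90.8%), Mrps12 +66 (50.8 to 91.0%) and Nfkbid −34 (64.0 to 98.0%). By the rule no AL-old mouse reached the young range at these 6, and at each the AL-old range overlapped the CR-old range. Ppp1r16a is a regulatory subunit of protein phosphatase 1, Mrps12 a mitochondrial ribosomal protein and Nfkbid a nuclear IκB. In CR-old the means at these 6 ran from 56.9% (Gm17246) to 98.3% (Nfkbid). No member met the corresponding rule for gains.

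Some members scarcely varied. Itgad −516, upstream of the gene for the integrin CD11d, ranged over 2.73 points across the 17 mice, from 97.1% to 99.9%. The ranges at Tmem63b +334, Tcfeb +303, Pkp3 −160 and Ppard +258, at genes for an ion channel, a lysosomal transcription factor, a desmosomal plakophilin and a nuclear receptor, were 3.21, 3.32, 3.91 and 3.97 points. Among members with 100 reads in all 17 mice, Slc6a9 −3, at a glycine transporter gene, lay closest to its assigned start. It had a mean of 82.9% in AL-young, a range of 66.7% to 99.8% in AL-old (median 98.1%) and of 81.1% to 97.1% in CR-old. Psmd3 −12, a subunit of the proteasome lid, and Pkp3 +18 had AL-old medians of 97.3% and 95.5% and lowest AL-old mice at 59.8% and 62.6%, and Ctu2 +9 and Nfkbid −34 completed the 5 nearest of these.

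By function the members were few per list, and no test was run over the lists. Antigen processing held 2 members, both at Psme1 and both higher in CR-old; over all 12 retained promoter sites of the list 4 were higher and 0 lower, with a median difference of −0.0309 points. The erythroid list held 2 sites of Rhd, a blood group antigen gene of red cells. Rhd +221 averaged 91.7% in AL-young, 78.4% in the 5 AL-old mice with 100 reads and 82.8% in CR-old, and Rhd +44 averaged 81.6%, 80.4% and 76.1%. Neither was called, nor were Zp1 +313 of the germline list (93.8%, 94.04% and 90.8% in the same order) or the 2 sites of Pkp3 in the epithelial list. The T cell, B cell, neutrophil, monocyte, NK, platelet and muscle lists held 0 members. In the solute carrier family 9 members of 5 genes included Slc35c2 +215 as the 1 lower site and 0 higher, with a median difference of −3.59 points, while the transmembrane protein family included Tmem222 −757 as the 1 higher of 5 members and had a median of −1.62 points. Over all retained sites the median was −0.233 points. Families were read from gene names. The kallikrein, CD antigen, olfactory receptor, interleukin and zinc finger families held between 1 and 2 members each and none was called, and the keratin, vomeronasal receptor, serpin, cytochrome P450, chemokine, TNF and G protein-coupled receptor families held 0.

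The cell type marker lists held 15 retained promoter sites. All 4 T cell sites were at Bcl11b, a T cell transcription factor that is not a member, and were at 0.438% to 1.73% on average in AL-young, 6.32% to 21.6% in AL-old and 0.728% to 4.35% in CR-old. The 4 sites were called lower in CR-old than in AL-old. None of the erythroid and platelet sites was called, and the B cell, neutrophil, monocyte and NK lists held 0 retained promoter sites. The Bcl11b sites were nearly unmethylated in AL-young whole blood, a mix of cell types, so there they do not mark T cells. With no site on the other white cell lists, the cell mix was not measured, and its part in the members' differences was not tested.

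At the 80% threshold the choice was sharp by construction. Just inside lay Eif4ebp3 +43, Izumo2 +48 and U6 −650 with raw young means of 80.3%, 80.5% and 80.9%, and just outside lay Rnf157 −300, Olfr523 +332 and Nudc +311 with 79.99%, 79.8% and 79.3%.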

How the data were processed

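The authors cut blood DNA carrying spiked standards with SmaI and XmaI, aligned the reads to mm9 and deposited, per mouse and per CCCGGG site, counts of methylated and total reads, together with raw and adjusted methylation as a percent. Bowtie2 and SAMtools are named in the submitters' processing notes, which also list mm10; the positions fell on CCCGGG in mm9 at all 173449 deposited sites. The authors' raw percent is 100 × (methylated + 0.5)/(total + 1), and their adjusted percent multiplies the odds by the correction factor of the mouse; both could be recomputed from the counts to within 0.00543 points. Libraries were made with paired-end or barcoded adapters, and which mouse had which was not given in the sources used here. Mice of middle age were not analysed here.

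Values under 100 reads were dropped from means, ranges, SDs and differences. The edgeR and limma fits used the counts of all mice at each retained site, including those under 100 reads. GENCODE vM1 transcripts gave starts and features, and the sequences were read from mm9. Methylated and unmethylated counts of all 15742 retained sites were fitted together by edgeR 4.0.16 (R 4.3.3) with a coefficient per mouse, 3 groups, a common dispersion and the log correction factor as offset; p-values were adjusted by Benjamini-Hochberg over all sites. The error of the correction factor itself is not in the p-values. Called sites had an adjusted p under 0.05 and adjusted group means at least 2 points apart in the same direction. limma 3.58.1 was an alternative. Other alternatives left out each mouse in turn, or changed the minimum of reads to 50 or 200, the young level to 90% or the window to 200 bp. The offset was also dropped, or kept with a high correction factor (1.3 or above, yes or no) added as a covariate. The mice are separate animals, so p-values rest on the spread between mice. In the main fit that spread was estimated over all 3 groups with information shared across sites. It is not the spread of the 2 compared groups at 1 site alone.

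Named members were, up to a stated number, those with the largest AL-old loss, the largest CR-old minus AL-old difference in each direction (1 site per gene, the second site of a gene being given beside it), the smallest range, the shortest distance to a start, a place in a gene list, or a mean next to the 80% threshold. Sites with large differences short of the threshold, Bcl11b and Pik3r2 −330 under the covariate were named after their values were seen. The members, gene lists and tests were chosen with earlier results of these data known. Some members that the rules name are not reported here.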

Additional observations from a re-analysis of the deposited data

Results flagged for a closer look

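Of 136 groups of values at named members, 17 had a mouse farther from the rest than Dixon's 95% limit allows, where chance flags about 1 in 20. AL-old 25 was the high mouse at Psme1 +254 (86.87%, others 2.66 to 36.7%), Psme1 +117 (83.52%) and 4933407P14Rik +218 (95.25%, others up to 43.18%), and the low one at Rtel1 +54 (98.45%). AL-old 14 was the low mouse at Trp53i11 −560 (31.48%), Ppp1r16a +114 (11.02%), Psmd3 −12 (59.82%) and Izumo2 +48 (38.84%). AL-old 27 was low at Nfkbid −34 (63.98%) and AL-old 08 at Ppard +258 (96.97%).

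Among AL-young mice, mouse 15 was low at Psme1 +117 (81.52%, others 84.81 to 86.08%), mouse 28 at Chdh −645 (80.12%), and mouse 16 at Tmem63b +334 (97.22%) and Slc6a9 −3 (75.58%). Among CR-old mice, 06 was low at Chdh −645 (46.43%) and high at Slc6a9 −3 (97.08%, others 81.09 to 85.47%), and 02 was low at Nfkbid −34 (97.07%).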

How the results depend on the processing

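The mean over members in AL-old minus AL-young was −7.04 points and moved to −11.42 with raw methylation and −0.3896 with the median member in place of the mean. CR-old minus AL-old was 3.273 points and became 6.968 with raw methylation and −2.391, a reversed sign, with the median. Leaving out each mouse gave −7.993 to −5.902 and 2.136 to 4.227 points, and sex, a low correction factor, other read minimums and other definitions of a member kept both signs. CR-old minus AL-old was 5.718 points at a minimum of 200 reads, 5.352 within 200 bp of a start and 1.637 with both CpG-poor criteria. The alternative with members read in all 17 mice, chosen after seeing the data, gave −8.21 and 5.13 points. When members were chosen without the mouse in which they were read, the mean was 93.1% in AL-young 15 and 92.86% in AL-young 16. With the members chosen from all young mice these 2 mice had 93.23% and 93.01%, and the AL-young group mean was 93.74%.

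Calls between CR-old and AL-old numbered 23 and fell to 1 with the correction covariate, 14 with only the compared groups, 0 with low-correction mice, 5 with both CpG-poor criteria and 10 within 200 bp of a start, fewer members being tested in the last 2. Leaving out each mouse gave 11 to 41 calls. Without AL-old 25 there were 41, without AL-old 27 35, without CR-old 02 14, without 06 39, without 19 11 and without 20 or 22 13. Over all sites the omissions gave 92 to 364 higher and 618 to 1672 lower, against 190 and 1107 in the main fit. The AL-old against AL-young counts, which are no test, numbered 36 and were 20 with the covariate, 6 with both criteria, 16 within 200 bp of a start, and 28 to 47 without a mouse. CR-old against AL-young gave 0 calls, and 2 with the covariate, 24 with only the compared groups, 31 with low-correction mice and 0 to 4 without a mouse (4 without CR-old 06). Over all sites the covariate gave 9 higher and 54 lower, the compared groups 151 and 563, and low-correction mice 61 and 693. Without CR-old 06 there were 6 and 50. Of the 19 named sites that differed between CR-old and AL-old, 11 kept their call without the offset, 0 with the covariate, 10 with only the compared groups, 0 with low-correction mice and 14 by limma. Gm12532 +289 reversed to −5.808 points with low-correction mice, and apart from this none of the 19 changed sign under these alternatives. The causes were not tested. No paired analysis was possible because no mouse number is shared between groups.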
